A study of Mus musculus with 4 samples.

Results

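T and NK cell transcripts are the RNAs of lymphocytes other than B cells, here a module of 43 genes among the 37646 listed, chosen by name from genes that mark T cells, their helper, follicular, regulatory and cytotoxic subsets, and natural killer (NK) cells. They were read in sorted B cells, so that the question was which of these transcripts remained and how they differed between libraries. T cells recognise peptides through an alpha-beta or, less often, a gamma-delta receptor, which signals through the CD3 chains; CD4 and CD8 are the coreceptors of helper and cytotoxic T cells. Follicular helper T cells enter germinal centres and help B cells through CD40 ligand and interleukin 21, whereas NK cells lack the receptor and kill through perforin and granzymes.

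All 4 libraries belonged to 1 group, normal controls of strain C57BL/6 with the genotype YFPstopF/+ Cg1Cre/+, in which a Cre recombinase expressed from the Ighg1 locus switches on a yellow fluorescent protein (YFP) that stays on afterwards. Mice received sheep red blood cells (SRBC) by intraperitoneal injection, again 20 days later, with spleens collected 10 days after that. Red cells were lysed, dead cells were left out with 7AAD, and cells positive for B220 and YFP were sorted, which the labels call splenic germinal centre B cells. The sort holds whatever carries both signals: in mice B220 also occurs on plasmacytoid dendritic cells and on some NK cells, and no T cell marker was used to remove cells. No age was given, and whether each library is its own mouse is not stated, so the spread between libraries may be technical in part. No other sorted population was analysed here, and hence no fold change between groups exists.

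Library totals ran from 13777954 to 14629025 counts, and the limit that 0 counts allow, 3 counts, stood for 0.205 to 0.218 CPM (counts per 1000000 library counts). Library 3 stood apart in carrying the Y-linked Ddx3y (1307 counts, against 0 to 3 elsewhere) and nearly lacking Xist (6 counts, against 8689 or more elsewhere), so its sex cannot be told apart from its other differences. Each pair of libraries differed beyond counting error, with a chi-square statistic over genes of 26.4 to 63.5 times its degrees of freedom, so that none was a library deposited again; this does not show that they came from separate mice. B lineage genes were at 8699, 9351, 9868 and 8108 CPM in libraries 1 to 4, summed over 10 markers.

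Every one of the 43 genes had a count in each library, and 42 exceeded 3 counts in each of them. A mean of at least 1 CPM was reached by 42 of the 43 genes, against 12475 of all 37646 genes listed. Because the 43 genes were chosen with earlier results of these data known, such detection counts are a description only. Together they took 1388, 702, 627 and 1187 CPM in libraries 1 to 4, that is 0.139%, 0.0702%, 0.0627% and 0.119% of the counts. Libraries 1 and 4 thus held more than libraries 2 and 3. In bulk RNA, fewer cells of a type and less RNA per cell cannot be told apart. Per length, in TPM (transcripts per 1000000 transcripts, mean ± SD, n = 4), the median of the genes was 9.38 TPM, against 12.5 TPM over the 12475 genes with a mean of at least 1 CPM, and 39 genes exceeded 1 TPM in each library.

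**Figure D1:**
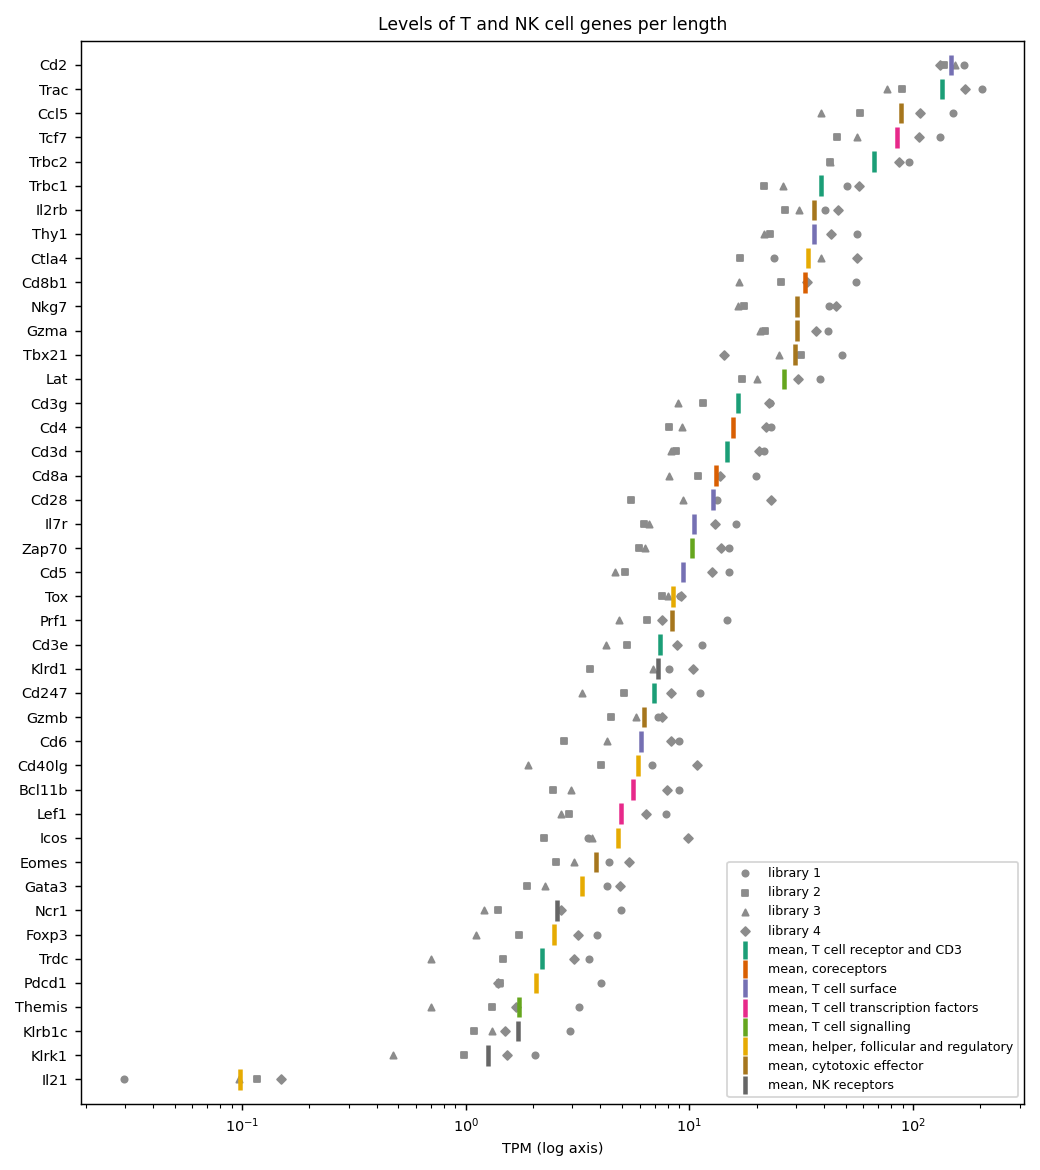
Level of each of the 43 genes in TPM on a log axis, ordered by the mean; grey symbols are the 4 libraries and coloured bars the mean, coloured by role. Cd2 (148.5 TPM) and Trac (135 TPM) head the order and Il21 (0.098 TPM) closes it.

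The T cell receptor was represented by its alpha and beta chains. Trac, the alpha chain constant gene (chromosome 14, 54220521 to 54224206, mm10), had 86.7, 39.6, 28.8 and 71.1 CPM in libraries 1 to 4. Trdc, the delta chain constant gene, had 6.32, 2.69, 1.09 and 5.24 CPM. Trac lay 5.40 ± 0.14 above Trdc on the log2(TPM + 1) scale, in 4 of 4 libraries, with a TPM ratio of 56.1 to 108.8. An exact permutation of the signs of the 4 differences (two-sided) gave p = 0.125, also after adjustment over 5 gene pairs. No smaller value is possible with 4 libraries, and each of the 5 pairs given here reached it. The beta chain constant genes Trbc1 and Trbc2 stood at 39.0 ± 17.7 and 67.0 ± 28.5 TPM.

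Trbc1 and Trbc2 lie next to each other on chromosome 6 and are near copies, which limits how reads of 50 nt can be told apart. Their coding parts, compared over 518 bases, were 95.6% identical, with 1 difference in the 375 bases of exon 1 and 22 in the 143 bases of exons 2 to 4. Of all 50-base windows, 40.5% of those in Trbc1 and 44.0% of those in Trbc2 also occurred in the other gene. The stretches that hold the exon 1 difference (bases 241 to 300 of the transcripts; chr6:41538458-41538517 and chr6:41546970-41547029, plus strand, mm10) and the start of exon 2 onward (bases 376 to 455) are shown to let the shared part be seen, with differing bases in capitals.
Trbc1, bases 241 to 300: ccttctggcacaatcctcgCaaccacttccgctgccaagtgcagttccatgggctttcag
Trbc2, bases 241 to 300: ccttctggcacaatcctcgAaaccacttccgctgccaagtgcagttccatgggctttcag
Trbc1, bases 376 to 455: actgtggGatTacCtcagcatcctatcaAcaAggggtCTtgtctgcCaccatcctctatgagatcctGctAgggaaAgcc
Trbc2, bases 376 to 455: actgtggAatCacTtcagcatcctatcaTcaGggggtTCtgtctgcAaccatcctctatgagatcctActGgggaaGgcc
The split between the 2 genes is therefore uncertain, and so is their sum, since how reads that match both were counted is not given.

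The CD3 chains, which carry the receptor's signal, were present in similar proportions in each library. Cd3e, the epsilon chain, had 21.2, 10.2, 6.97 and 16.0 CPM in libraries 1 to 4, and Cd3d, the delta chain, 18.0, 7.55, 6.08 and 16.4 CPM. Cd3g, the gamma chain, had 34.4, 17.9, 11.7 and 32.8 CPM. Summed with Cd247, the zeta chain, the 4 genes reached 100.9, 48.5, 31.9 and 84.8 CPM, referred to below as the CD3 sum. Library 1 held the most and library 3 the least, with library 4 close to library 1. Per 1000 CPM of the B cell receptor genes Cd79a and Cd79b, the CD3 sum was 58.0, 30.9, 19.5 and 61.6 CPM, so on this scale library 4 was the highest. Of the exonic bases of Cd247, 56.4% lie opposite exons of Pou2f1, and because no source says whether counting used the strand, its level is uncertain; it made up 27.1%, 26.6%, 22.3% and 23.1% of the sum.

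Trac followed the CD3 sum closely, at 85.9%, 81.6%, 90.3% and 83.8% of it in libraries 1 to 4. This was the pattern of most of the module. Of the 38 other genes with a mean of at least 1 CPM, 25 kept their ratio to the CD3 sum within a 2-fold range over the libraries, against 4.12% of all 12475 genes at that level. With Trac, Trbc1 and Trbc2 as the yardstick, 29 of 39 genes did so, against 5.28% of all genes. The 2-fold range and the yardsticks were chosen after the values were seen, and genes read from the same libraries are not independent of each other.

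**Figure D2:**
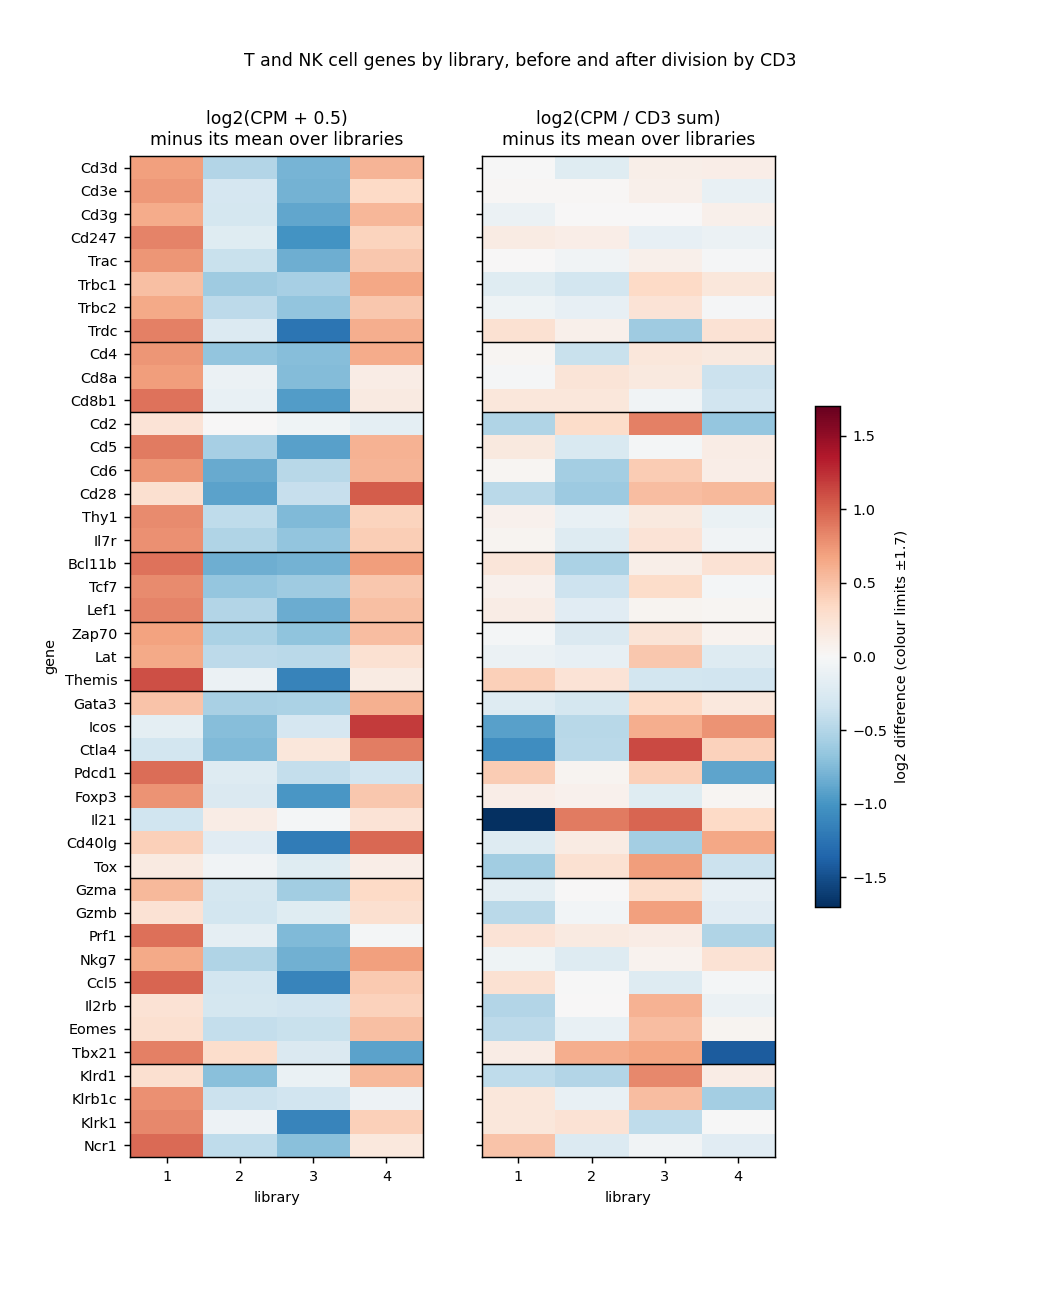
Rows are the 43 genes by role and columns the 4 libraries. Colours give log2(CPM + 0.5) (left) and log2 of the ratio to the CD3 sum (right), each minus the gene's mean over libraries; most rows turn pale on the right, while Ctla4, Icos, Tbx21, Cd2, Tox and Il21 do not.

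Reading the promoters of genes that moved together and of one that did not gives the sequence context. RefSeq start sites (GRCm38.p6, the build named mm10) were found for 27 of the 43 genes, with 36 promoters in all. The 250 bases before the start are shown for Cd3d (chr9:44981536-44981785, plus strand) and Cd3e (chr9:45009612-45009861, minus strand), neighbours whose CPM followed each other, and for Tbx21 (chr11:97115332-97115581, minus strand), whose CPM did not follow theirs. Capitals mark TCF/LEF (CTTTGA), ETS (GGAAGT) or RUNX (TGTGGT) core letters on either strand.
Cd3d: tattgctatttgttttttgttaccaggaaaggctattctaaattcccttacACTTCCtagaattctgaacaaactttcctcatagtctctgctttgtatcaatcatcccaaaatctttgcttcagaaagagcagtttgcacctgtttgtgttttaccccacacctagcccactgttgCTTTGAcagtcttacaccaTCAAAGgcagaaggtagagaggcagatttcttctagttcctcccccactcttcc
Cd3e: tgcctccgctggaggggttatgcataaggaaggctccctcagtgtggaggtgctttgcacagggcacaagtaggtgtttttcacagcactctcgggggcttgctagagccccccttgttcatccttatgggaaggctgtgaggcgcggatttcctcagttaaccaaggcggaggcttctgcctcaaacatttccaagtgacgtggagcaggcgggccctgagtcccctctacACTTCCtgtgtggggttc
Tbx21: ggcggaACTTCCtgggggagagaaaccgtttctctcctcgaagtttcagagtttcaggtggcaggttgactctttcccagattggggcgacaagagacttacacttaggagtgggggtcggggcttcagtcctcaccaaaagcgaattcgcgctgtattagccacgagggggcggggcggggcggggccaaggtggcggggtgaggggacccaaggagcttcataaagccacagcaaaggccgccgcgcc
Cd3d held 2 TCF/LEF matches and 1 ETS match, and Cd3e and Tbx21 1 ETS match each. Among the 36 promoters of the module, 9 held the RUNX letters (25%, against 14.05% of all 32851 promoters), 12 the ETS letters (33.3%, against 19.7%) and 4 the TCF/LEF letters (11.1%, against 13.8%). Matches of 6 letters are a description only and say nothing of binding.

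Both coreceptors were present. Cd4 had 42.7, 15.5, 15.0 and 39.3 CPM in libraries 1 to 4, and Cd8b1, the CD8 beta chain that marks conventional cytotoxic T cells, 37.8, 18.1, 9.98 and 22.2 CPM. Cd8a, the alpha chain, which some dendritic cells also make, had 33.2, 18.9, 11.9 and 22.1 CPM. Per length, Cd4 (15.6 ± 8.05 TPM) lay below Cd8b1 (33.0 ± 16.7 TPM) in 4 of 4 libraries, by -1.04 ± 0.43 on the log2(TPM + 1) scale (exact sign-flip p = 0.125). Without gene length this turned round, Cd4 being higher by 0.33 on the log2(CPM + 1) scale, so that the order of these genes rests on the length used. The Cd4 to Cd8b1 ratio in TPM was 0.415, 0.315, 0.554 and 0.652, which is lower in libraries 1 and 2 than in libraries 3 and 4.

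Of the 6 surface molecules of T cells, 3 kept within a 2-fold range of the CD3 sum (Thy1, Il7r and Cd5), while Cd6 (2.01-fold), Cd28 (2.25-fold) and Cd2 did not. Thy1, a marker of mouse T cells, had 77.3, 32.6, 26.0 and 57.4 CPM, and Il7r, the interleukin 7 receptor alpha chain of resting T cells, 34.6, 13.9, 12.4 and 27.0 CPM. Cd5, a negative regulator of receptor signals also made by B-1 cells, had 33.8, 12.1, 9.30 and 27.6 CPM, and Cd6, its relative, 32.8, 10.4, 13.7 and 29.1 CPM. Cd28, the costimulatory receptor, had 37.1, 16.0, 23.2 and 62.7 CPM and so was highest in library 4. Cd2, an adhesion receptor that mouse B cells also make, had 134.4, 114.3, 108.8 and 101.7 CPM; at a 1.32-fold range it was nearly level, and its ratio to the CD3 sum differed 2.85-fold.

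For the 3 transcription factors and 3 signalling genes of T cells, libraries 1 and 4 were the 2 highest, and Tcf7 and Bcl11b were lowest in library 2 rather than library 3. Tcf7, the TCF-1 factor of naive and memory-like T cells, was the most abundant, at 158.9, 57.0, 59.4 and 124.2 CPM. Bcl11b, required for T cell identity, had 33.2, 9.51, 9.71 and 28.6 CPM, and Lef1, a partner of Tcf7, 31.5, 12.1, 9.43 and 24.9 CPM. These 3 genes summed to 223.7, 78.6, 78.5 and 177.7 CPM, so libraries 2 and 3 were level here. The kinase gene Zap70 had 20.5, 8.49, 7.66 and 18.3 CPM, the adaptor gene Lat 48.6, 22.7, 22.4 and 37.4 CPM, and Themis, needed for selection in the thymus, 17.2, 7.26, 3.28 and 8.67 CPM.

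Of the 7 genes of helper, follicular and regulatory T cells with a mean of at least 1 CPM, 2 kept within a 2-fold range of the CD3 sum. Foxp3, which defines regulatory T cells, had 8.09, 3.77, 2.05 and 6.43 CPM and kept to 6.44 to 8.02% of the CD3 sum, though exons of 3 genes on the other strand and of Flicr overlap it. Gata3, a factor of type 2 helper cells, had 7.81, 3.56, 3.62 and 8.60 CPM. Cd40lg, the CD40 ligand, had 3.90, 2.40, 0.957 and 6.01 CPM. Il21, the follicular helper cytokine, had 1, 4, 3 and 5 counts, near or below the 3 counts taken as the limit. Foxp3 lay above Il21 by 1.58 ± 0.58 on the log2(TPM + 1) scale in 4 of 4 libraries (exact sign-flip p = 0.125).

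Icos, Ctla4 and Pdcd1 departed from the CD3 sum. Icos, a costimulatory receptor high on follicular helper cells, had 5.54, 3.63, 5.06 and 15.0 CPM, so that library 4 lay apart from the others. Ctla4, an inhibitory receptor of regulatory and activated T cells, had 25.4, 18.6, 36.4 and 58.2 CPM, and as a share of the CD3 sum 25.2%, 38.3%, 114.2% and 68.7%. Library 3, lowest in CD3, thus held more Ctla4 than library 1. Pdcd1, the PD-1 receptor of follicular helper and exhausted T cells that activated B cells can make too, had 3.55, 1.31, 1.09 and 1.19 CPM, with library 1 apart. Tox, a factor of exhausted and follicular T cells, was level at 31.5, 27.2, 24.5 and 30.9 CPM, a 1.28-fold range. As a sum of 8 genes this role was highest in library 4 (126.6 CPM) and lowest in library 2 (60.7 CPM). In every other role library 1 was highest and library 3 lowest. Much of the sum was Ctla4 and Tox, with means of 34.6 and 28.5 CPM out of 86.8 CPM. Single genes differed: Gata3, Icos and Ctla4 were lowest in library 2, but Pdcd1, Foxp3, Cd40lg and Tox in library 3. The order of the sum is therefore not that of the role's genes as a class.

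Of the 8 cytotoxic genes, 5 lay above the module's median of 9.38 TPM, and Prf1 (8.40 TPM), Gzmb (6.27 TPM) and Eomes (3.83 TPM) below it. Ccl5, a chemokine of memory and effector T cells and NK cells, had 66.3, 26.6, 15.0 and 45.6 CPM (88.9 ± 50.5 TPM). Nkg7, a granule protein, had 17.6, 7.62, 6.08 and 18.4 CPM, Gzma, granzyme A, 19.2, 10.5, 8.41 and 16.5 CPM, and Prf1, perforin, 17.4, 7.91, 5.06 and 8.67 CPM. All 4 stayed within a 2-fold range of the CD3 sum. Gzmb, granzyme B, was lower and more level, at 4.76, 3.05, 3.35 and 4.82 CPM. Eomes, a factor of cytotoxic cells, had 8.31, 5.01, 5.13 and 9.85 CPM, and Il2rb, the interleukin 2 receptor beta chain, 79.5, 54.4, 53.3 and 88.1 CPM, a 1.65-fold range.

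Tbx21 had its own order. This gene of the T-bet factor, which T helper 1 cells, NK cells and some activated B cells make, had 54.9, 37.2, 25.2 and 15.8 CPM, and was lowest in library 4, where CD3 was near its highest. Its ratio to the CD3 sum differed 4.25-fold. Gata3 lay below Tbx21 by -2.78 ± 0.95 on the log2(TPM + 1) scale in 4 of 4 libraries (exact sign-flip p = 0.125).

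NK cell receptors had the lowest sum of the 8 roles, at 18.9, 8.06, 7.25 and 14.5 CPM for 4 genes. Ncr1, the NKp46 receptor that defines NK cells, had 49, 14, 11 and 26 counts, or 3.48, 1.02, 0.752 and 1.82 CPM. Klrb1c, which encodes the NK1.1 antigen, had 3.98, 1.52, 1.57 and 1.96 CPM. Klrd1, the CD94 subunit, had 4.76, 2.18, 3.55 and 5.87 CPM, and Klrk1, the NKG2D receptor also found on CD8 T cells, 6.67, 3.34, 1.37 and 4.89 CPM. These counts were above the limit in each library and small. Cd4 lay above Ncr1 by 2.20 ± 0.32 on the log2(TPM + 1) scale in 4 of 4 libraries (exact sign-flip p = 0.125).

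**Figure D3:**
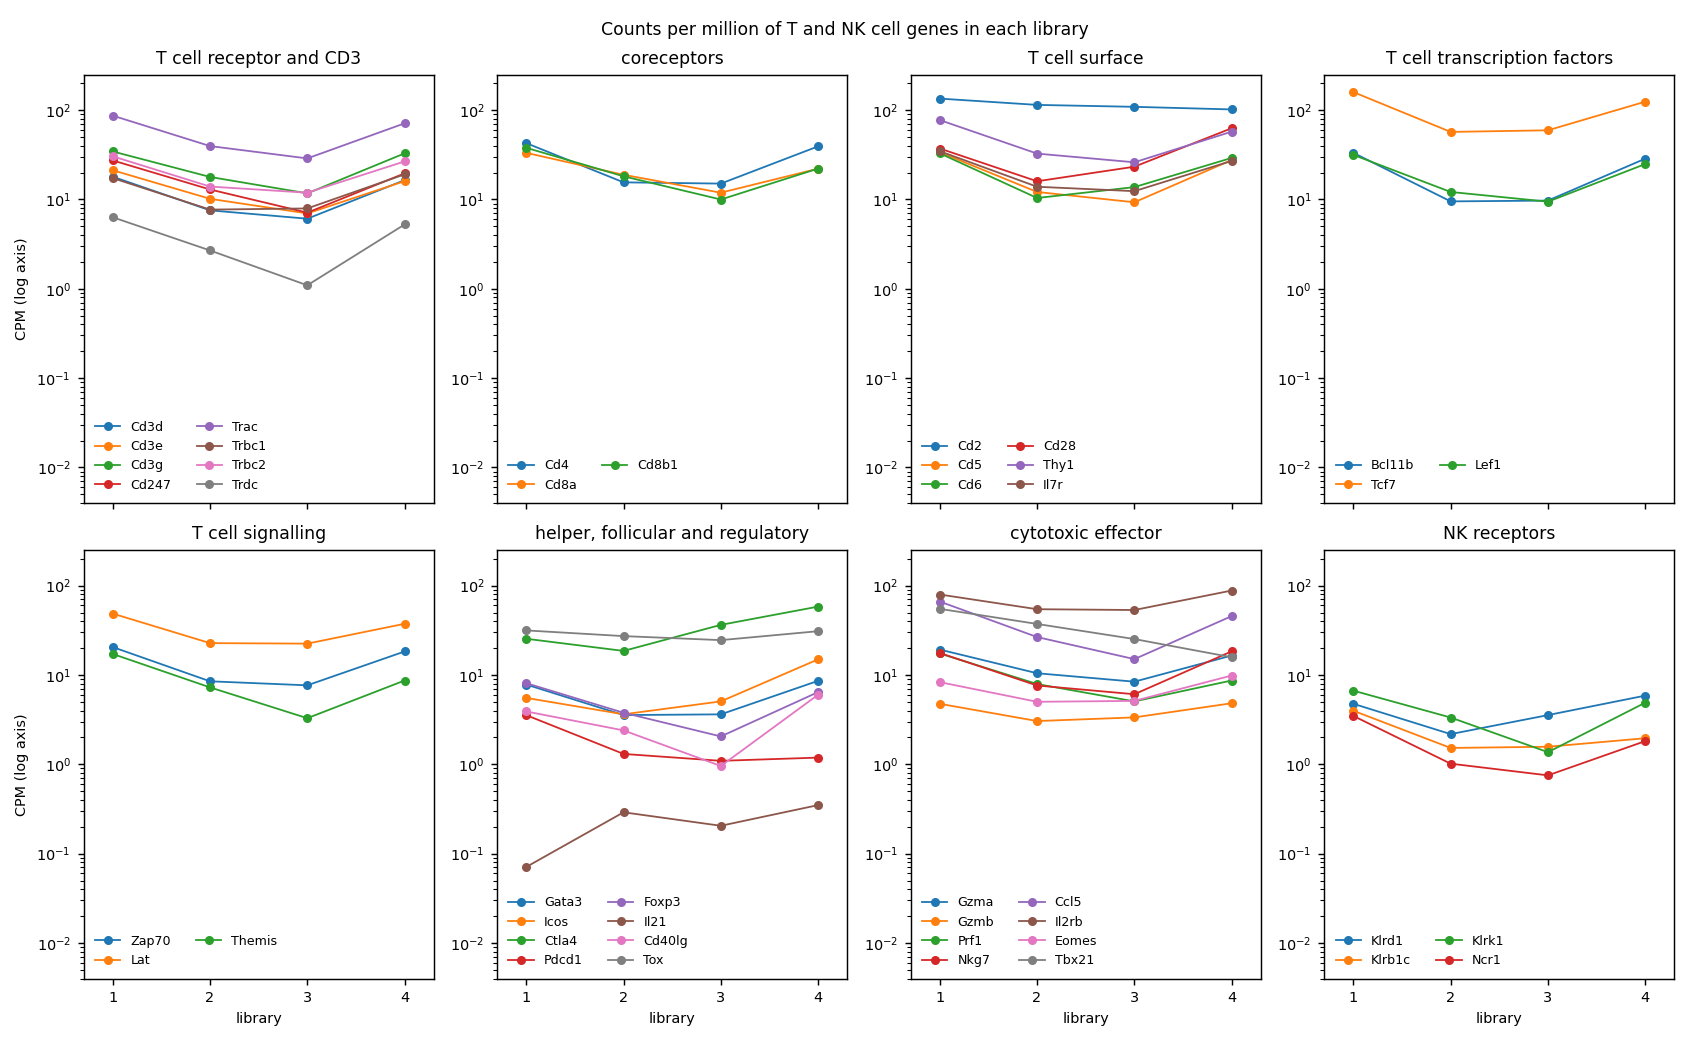
CPM of each gene (log axis) in libraries 1 to 4, 1 panel per role; lines join the values of a gene and imply no order of libraries. In most panels libraries 1 and 4 lie above libraries 2 and 3, and Cd2, Ctla4, Pdcd1, Tbx21 and Il21 depart from that.

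Each gene's spread over the libraries was tested with edgeR's quasi-likelihood fit, which asks whether a gene differs between libraries by more than genes of its level. None of the 42 genes that passed the filter on low counts was past the threshold after Benjamini-Hochberg adjustment over the 11982 genes tested (0.00835% of which, 1 gene, passed). The unadjusted threshold of 0.05 was passed by 31 of the 42 genes, against 4.97% of all genes tested, and 4 of 42 were DESeq2 dispersion outliers, against 1.33% of all genes tested. The smallest edgeR adjusted p in the module were those of Ccl5 (adjusted p = 0.379), Tcf7 (adjusted p = 0.444), Cd28 (adjusted p = 0.488), Trac (adjusted p = 0.52) and Bcl11b (adjusted p = 0.524). Variance over the trend was 20.0 for Ccl5 and 0.632 for Tox, with a median of 7.21 over the 42 genes, against 0.895 over all genes tested. Without library 3 the count at the unadjusted threshold was 19 of 42, and with each other library left out 25 to 30.

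Counting error alone was smaller than the differences. By a chi-square test of counts against library totals, 42 of 42 genes tested were past an adjusted p of 0.05, against 71.7% of all genes tested. That test compares these libraries and not conditions. The highest library was at least 2-fold above the lowest in 37 of the 42 genes with a mean of at least 1 CPM, against 20.5% of all genes at that level, and the median range was 3.02-fold, against 1.46-fold.

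The order of libraries was shared. The highest value was in library 1 for 31 of 42 genes (29.4% of all genes), in library 4 for 11 (21.9%), and in libraries 2 and 3 for 0 (16.3% and 32.3%). The lowest was in library 3 for 28 (22.9%), in library 2 for 12 (37.5%), in library 4 for 2 (13.9%) and in library 1 for 0 (25.7%). Libraries 1 and 4 were the 2 highest for 38 genes (18.5%); the 4 others were Cd2, Ctla4, Pdcd1 and Tbx21. On the log2(CPM + 0.5) scale the median shift from the gene's mean was 0.74, -0.39, -0.69 and 0.46 in libraries 1 to 4, against 0.02, -0.08, 0.04 and 0.04 over all 12475 genes.

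Further T and NK cell genes, given by lists that the module does not use, moved in the same 2 ways. Of 31 other T cell genes with a mean of at least 1 CPM, 15 kept within a 2-fold range of the CD3 sum, and libraries 1 and 4 were the 2 highest for 23. Over all genes at that level these shares were 4.12% and 18.5%. Cd27, a costimulatory receptor, had 14.1, 5.66, 3.62 and 11.3 CPM and was among those that kept within the range. The 3 highest of that list per length, the homing receptor gene Ccr7, the kinase gene Lck and S1pr1, are made by B cells too and did not follow; Ccr7 had 113.5, 192.8, 138.7 and 168.8 CPM, and Lck 163.5, 160.0, 191.2 and 202.7 CPM. The summed list was thus level, at 1333, 1368, 1126 and 1404 CPM. Of 17 other NK cell genes with a mean of at least 1 CPM, 9 kept within the 2-fold range, and libraries 1 and 4 were the 2 highest for 14. The NK cell list summed to 128.6, 100.7, 92.4 and 138.3 CPM. It was led by the adaptor genes Tyrobp and Fcer1g, which myeloid cells share, and the protease gene Ctsw.

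Transcripts of cells other than lymphocytes differed between libraries as well. The neutrophil list (10 genes, 8 with a count in each library) had 107.5, 68.0, 56.0 and 141.1 CPM in libraries 1 to 4, led by S100a9, Ngp and S100a8, while Ly6g stayed at 3 to 4 counts. Erythroid genes had 44.2, 38.4, 31.2 and 106.2 CPM, and the macrophage and monocyte list 283.1, 206.1, 187.8 and 238.2 CPM. Platelet genes (7 of 8 had a row) had 91.9, 35.9, 42.0 and 47.4 CPM, much of it Itgb3 (43.9, 21.3, 32.7 and 29.6 CPM). Plasmacytoid dendritic cell genes had 122.4, 93.9, 102.9 and 147.3 CPM, of which Siglech, their defining marker, had 53, 6, 3 and 74 counts. Most of the plasmacytoid sum was Pacsin1 (76.6, 67.1, 81.2 and 96.9 CPM). Itgb3 was higher in library 3 than in library 4, and Pacsin1 higher in library 3 than in library 1. Like the CD3 sum, these 5 sums were higher in libraries 1 and 4 than in libraries 2 and 3. Among genes with a mean of at least 1 CPM, libraries 1 and 4 were the 2 highest for 5 of 7 neutrophil and 5 of 6 erythroid genes. The same held for 3 of 10 macrophage, 4 of 6 platelet and 5 of 6 plasmacytoid dendritic cell genes, against 18.5% of all genes at that level. Dendritic cell genes summed to 86.2, 110.0, 94.4 and 151.0 CPM, highest in library 4 and lowest in library 1. Much of that sum was Ccl22 (21.4, 46.5, 34.2 and 72.9 CPM) and Flt3 (43.4, 44.0, 50.3 and 51.3 CPM). Libraries 1 and 4 were the 2 highest for 5 of the 8 dendritic cell genes, and for 2 of the 5 with a mean of at least 1 CPM. Of the genes with a mean of at least 1 CPM, 3 of 7 neutrophil, 3 of 10 macrophage and 3 of 6 plasmacytoid dendritic cell genes kept within a 2-fold range of the CD3 sum. So did 2 of 5 dendritic cell, 2 of 6 platelet and 0 of 6 erythroid genes, against 4.12% of all genes at that level. The part of these cells in the T and NK cell levels was not tested.

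**Figure D4:**
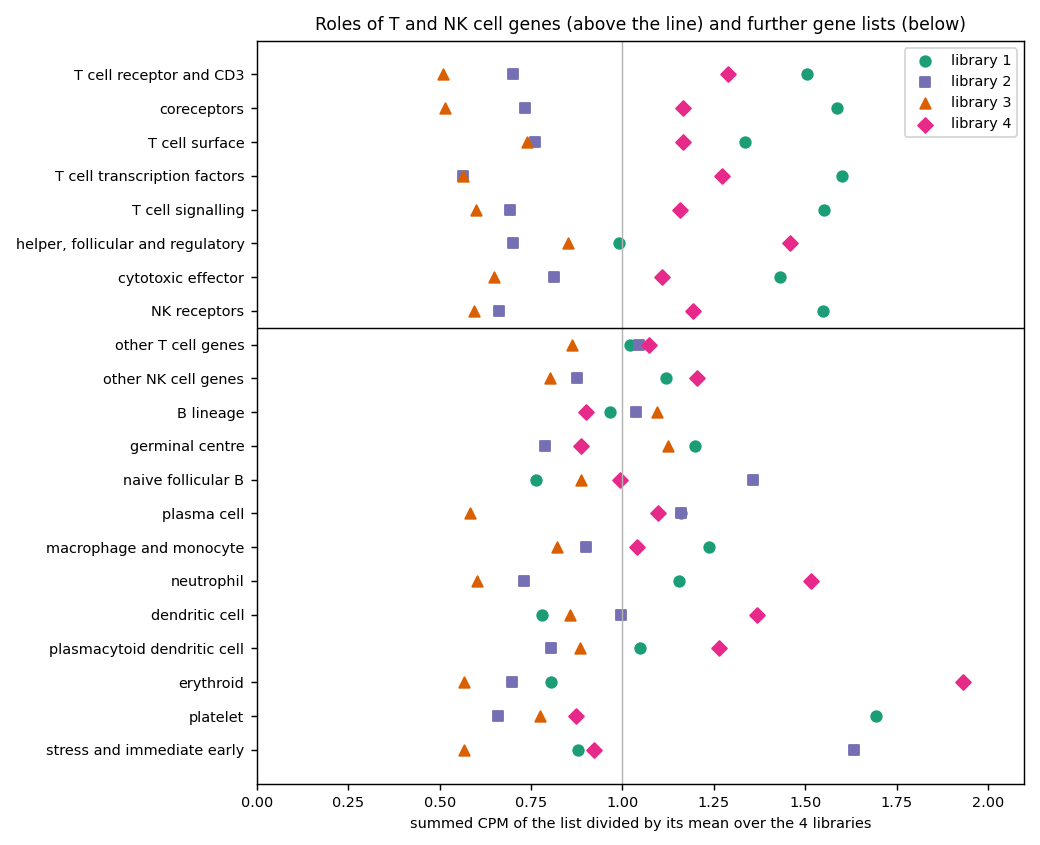
Summed CPM of each list in each library divided by its mean over the 4 libraries. In 7 of the 8 roles above the line libraries run 3, 2, 4, 1 from low to high; below it, neutrophil, erythroid, platelet, macrophage and plasmacytoid dendritic cell lists also have libraries 1 and 4 highest, while B cell lists do not.

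B cell programmes had other orders of libraries. Germinal centre genes summed to 2116, 1392, 1982 and 1565 CPM, naive follicular B genes to 1709, 3040, 1986 and 2226 CPM, and plasma cell genes to 2589, 2589, 1299 and 2447 CPM. Stress and immediate early genes, which tissue handling induces, summed to 5134, 9554, 3308 and 5391 CPM, highest in library 2. Of these 12 genes, 7 were highest in library 2, 2 in library 1 and 3 in library 4. Libraries 1 and 4 were the 2 highest for 3 of them, against 18.5% of all genes with a mean of at least 1 CPM. In none of the 10 B lineage, 10 germinal centre, 8 naive and 8 plasma cell genes were libraries 1 and 4 the 2 highest. Within a 2-fold range of the CD3 sum were 3 of the 8 plasma cell genes, whose sum was lowest in library 3 as the CD3 sum was. None of the B lineage, germinal centre and naive genes kept within it, and of all genes with a mean of at least 1 CPM 4.12% did.

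Rearranged receptors were looked for through V segments, which encode most of the antigen-binding region. Beta chain segments (Trbv) gave 506, 151, 138 and 339 counts in libraries 1 to 4, and 23 of 27 segments had a count. Shares were spread over many segments: the effective number (1 over the summed squares of the shares) was 12.8, 12.1, 12.8 and 12.7. Trbv13-2 led library 1 with 16.0% of Trbv counts (exact 95% interval 12.9 to 19.5%). Trbv3 led library 3 with 16.7% (10.9 to 24.0%) and library 4 with 15.0% (11.4 to 19.3%), and shared the lead of library 2 with Trbv13-2 at 14.6% each (9.36 to 21.2%). No library was led by a segment that was rare elsewhere. These intervals and the limit of 3 counts hold counting error alone, because no molecular identifiers tell repeated reads of a molecule apart.

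**Figure D5:**
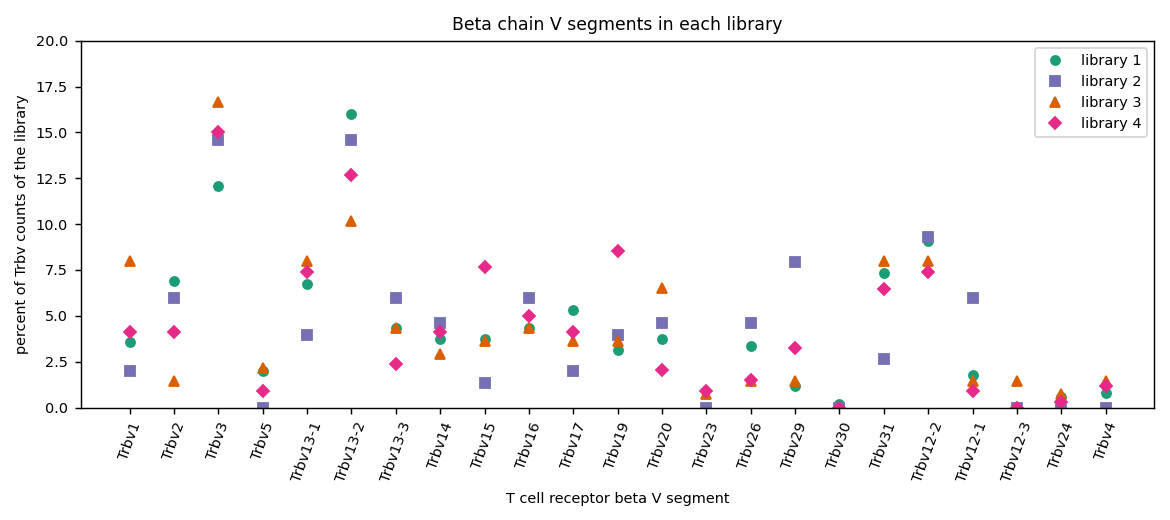
Share of each beta chain V segment in the Trbv counts of a library, for the 23 segments with a count. Trbv3 and Trbv13-2 are the highest in all 4 libraries, at 10.1 to 16.7%.

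Alpha chain segments (Trav) gave fewer counts, 132, 36, 38 and 109, spread over 58 of 65 segments. The leading ones were Trav12-2 in library 1 (12.9%, exact 95% interval 7.68 to 19.8%), Trav7-4 in library 2 (13.9%, 4.67 to 29.5%), Trav3-4 in library 3 (10.5%, 2.94 to 24.8%) and Trav16 in library 4 (6.42%, 2.62 to 12.8%). At such counts the order of alpha segments could not be resolved. Per 100 counts of the constant genes, Trbv gave 75.3, 50.7, 47.6 and 51.8 counts and Trav 10.8, 6.61, 9.03 and 10.7. The Trbv and Trav values cannot be set against each other. Trbc1 and Trbc2 share sequence, which leaves their summed count uncertain, whereas Trac shared no 50-base window with another gene. Library 1 was highest and libraries 2 to 4 lay close together for Trbv.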

How the data were processed

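Poly(A)-selected RNA of 4 sorted splenic B220+ YFP+ samples was read on DNBseq as single reads of 50 nt. The authors deposited raw counts of reads for every gene, with 1 file a library and totals of 13777954 to 14629025. Tools named in the submitters' processing notes are STAR 2.5.2b, featureCounts 1.6.0 and FastQC, and the build is mm10. The sources used here give no annotation release, strand setting or handling of multiply matching reads.

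CPM is a gene's count over the library total. TPM used union exon lengths of GENCODE M21 (GRCm38), which 37536 of 37646 identifiers matched without version; 110 did not and entered no TPM. The test of variation ran in R 4.3.3 with edgeR 4.0.16 (filterByExpr, TMM, intercept-only glmQLFit, legacy = FALSE): the ratio of a gene's quasi-dispersion to the trend gave an upper-tail F probability, adjusted by Benjamini-Hochberg over all genes tested. The chi-square test used 3 degrees of freedom and genes with a mean of at least 5 counts. Gene pairs used log2(TPM + 1) and a two-sided exact sign-flip test. DESeq2 1.42.0 served as an alternative. Other steps ran in Python 3.11.15 with scipy 1.17.1; the variation test was tested on simulated data.

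The 43 genes, all further lists and the 5 pairs were chosen with earlier results of these data known. The text names all 43 genes, the 3 highest and the lowest of further lists, leading V segments, and the 5 smallest p of the variation test; other genes, such as Cd27, Ifng, Il4, Il2, Lag3 and Tigit, were picked after their values were seen. Symbols Tcrg-C1, Tcrg-C2, Tcrg-C4 and Gp1bb had no row. Alternatives were other size factors, filters, pseudocounts, values without gene length, the robust fit, and each library left out in turn. Every count column was used.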

Additional observations from a re-analysis of the deposited data

Results flagged for a closer look

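Of 51 sets of 4 values examined (43 genes and 8 role sums), 2 held a library far from the other 3; chance gives about 1 in 20. Icos in library 4, at 15.0 CPM, lay apart from 5.54, 3.63 and 5.06 CPM in libraries 1 to 3. Pdcd1 in library 1, at 3.55 CPM or 50 counts, lay apart from 1.31, 1.09 and 1.19 CPM in libraries 2 to 4, which rested on 16 to 18 counts.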

How the results depend on the processing

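No comparison between groups, paired or not, was possible because the labels give 1 group. The Cd4 minus Cd8b1 difference turned to 0.33 without gene length (exact sign-flip p = 0.375). The 4 other pairs kept their direction under each alternative run. Variable genes numbered 1 in the main test, 262 without a filter on low counts, 63 with the robust fit, 159 as DESeq2 dispersion outliers, and 0 to 19 with a library left out; at an unadjusted p they numbered 595, and 1467 without the filter. Genes of the module past the adjusted threshold numbered 0, but 10 without the filter and 4 as dispersion outliers; at an unadjusted p they numbered 31, and 19 to 30 with a library left out (19 without library 3). Over totals without mitochondrial and immunoglobulin genes, which are smaller, every role sum was higher. The T cell surface sum went from 262.1 to 349.4 CPM and that of the T cell receptor and CD3 genes from 160.6 to 214.7 CPM. Only the surface sum moved by more than its SD over the libraries (78.1 CPM), and the other 7 sums moved by less than 1 SD. The mean effective number of Trav segments was 19.8, and 6.05 for segments with at least 10 counts. Shifts, highest-library counts and counting-error calls kept their side. Genes within 2-fold of the CD3 sum numbered 25, and 26 to 33 with a library left out. Leaving out a library can only narrow a range or leave it as it was, so these counts could not fall and check nothing. Depth limits Il21, Trdc, the NK receptors and single V segments.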

Other observations

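Among cytokine genes outside the module, Ifng, the type 1 cytokine, had 62, 27, 7 and 61 counts in libraries 1 to 4. Nearer to the limit of 3 counts, Il4 had 5, 2, 5 and 6 counts, Il2 had 1, 3, 0 and 1, and Il17a, the lowest of the other T cell genes per length, 0, 4, 0 and 0. Of inhibitory receptors, Lag3 had 4.19, 2.25, 2.53 and 4.54 CPM and Tigit 4.97, 2.69, 2.26 and 4.19 CPM, both within a 2-fold range of the CD3 sum. The lowest of the other NK cell genes, Styk1, had 1, 1, 5 and 22 counts.

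Receptor segments other than V alpha and V beta were few. Joining segments gave 67, 23, 31 and 59 counts for beta and 58, 27, 17 and 61 for alpha. Gamma chain constant genes (Trgc) gave 34, 23, 10 and 39 counts, gamma V segments 15, 7, 0 and 8, and delta V segments 0, 2, 2 and 3. The 2 highest libraries were 1 and 4 for each of the constant and joining classes.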
